A study of Mus musculus with 10 samples.

Results

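The genes described here are 10 genes of the epithelial-mesenchymal transition (EMT), namely Cdh1, Cdh2, Vim, Fn1, Zeb1, Zeb2, Snai1, Snai2, Twist1 and Esrp1. They were picked by gene name from the deposited table of 34449 genes, and all 10 were found, each as a single gene. Whole tumors of 4T1, a mouse triple-negative breast cancer line, were sequenced in 5 control and 5 therapy libraries. The tumors grew under the skin of the flank of female BALB/c mice, which were 9 weeks old according to the series description. Therapy tumors had received BC@Z-M + L, an acid-degradable metal-organic framework carrying the hypoxia-responsive molecular probe BN-O and the vascular disrupting agent CA4P under a coat of M1-like macrophage membrane, with laser light (L) on the tumor. Control tumors were left without it. Whether controls received vehicle or light, and whether each library came from its own mouse, is not given in the sources used here. All p-values therefore measure only how libraries vary, which may be technical. All tumors derive from 1 cell line, and in bulk RNA fewer cells of a type and less RNA per cell cannot be told apart.

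EMT is the program by which epithelial cells, held together by E-cadherin junctions, take on a mobile, fibroblast-like form. Transcription factors of the SNAIL, ZEB and TWIST families repress epithelial genes by binding E-box motifs in their regulatory DNA, while the splicing regulator ESRP1 keeps epithelial splice forms. Carcinoma cells often hold epithelial and mesenchymal genes at once, and 4T1 is a metastatic line in which E-cadherin is retained. Mesenchymal genes are also expressed by fibroblasts, pericytes, endothelial cells and macrophages, which every solid tumor contains.

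The E-box form read best by SNAIL and ZEB factors is CAGGTG, which is CACCTG on the opposite strand. The 250 bases before the annotated RefSeq start (build GRCm38.p6) were searched for it on both strands, and windows were matched for 4 of the 10 genes (Vim, Zeb2, Snai1 and Twist1). Of them Snai1 held 1 match, while the windows of Vim, Twist1 and the 4 starts of Zeb2 held none of these letters. Among all 32851 windows 17.2% held a match. The Snai1 window (chr2:167537945-167538194, plus strand) is shown as the regulatory DNA of a repressor measured here. That of Epcam (chr17:87635729-87635978, plus strand), an epithelial adhesion gene used below as a reference for Cdh1, held 2 matches. Capitals mark the matches.
Snai1: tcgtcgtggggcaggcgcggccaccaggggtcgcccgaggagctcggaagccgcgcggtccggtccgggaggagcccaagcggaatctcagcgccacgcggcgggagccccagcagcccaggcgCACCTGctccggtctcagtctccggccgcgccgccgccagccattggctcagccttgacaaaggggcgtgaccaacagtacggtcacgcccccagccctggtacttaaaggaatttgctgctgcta
Epcam: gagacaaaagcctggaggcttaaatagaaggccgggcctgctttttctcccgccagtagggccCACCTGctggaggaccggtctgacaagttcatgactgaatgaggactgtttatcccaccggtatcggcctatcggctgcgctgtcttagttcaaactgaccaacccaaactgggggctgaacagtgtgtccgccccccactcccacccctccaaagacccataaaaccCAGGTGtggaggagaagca

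Control libraries held 53411182 to 65263003 estimated counts each, and therapy libraries 53446143 to 77510631. Between libraries of a group, Pearson's r of log2(FPKM + 1) across genes was 0.949 to 0.982 in control and 0.929 to 0.982 in therapy. As a check of the labelled tissue, all 8 tumor epithelium markers were detected in every library, and they summed to 1852 to 2306 FPKM in control and 1648 to 2655 FPKM in therapy. Some libraries also had more RNA of markers of surrounding tissue or blood, and whether such tissue was carried along was not tested. Summed keratinocyte markers reached 311 FPKM in therapy replicate 2, 53.1 FPKM in control replicate 1 and 47.9 FPKM in control replicate 3, against 3.71 to 18.1 FPKM in the others. Skeletal muscle markers reached 81.2 and 96.3 FPKM in therapy replicates 2 and 3 and 54.0 FPKM in control replicate 5, against 12.1 to 29.5 FPKM elsewhere. Erythroid markers reached 669.9 FPKM in control replicate 4. Adipocyte markers reached 111 FPKM in control replicate 4 and 24.5 FPKM in therapy replicate 4, against 3.87 to 10.2 FPKM elsewhere.

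Levels are given as FPKM, fragments scaled by transcript length and library total, and so can be compared between genes. Averaged over the 10 libraries, Vim was the highest at 884 FPKM, followed by Fn1 at 277, Cdh1 at 59.7, Twist1 at 29.4, Snai1 at 18.3, Zeb2 at 3.33, Esrp1 at 2.01, Zeb1 at 1.03, Snai2 at 0.776 and Cdh2 at 0.264 FPKM. The 10 libraries therefore held abundant E-cadherin RNA beside abundant vimentin and fibronectin RNA, while N-cadherin RNA was the scarcest of the 10. Vim, Fn1 and Cdh1 did not overlap with their neighbors in this order across libraries. The ranges of Twist1 and Snai1 overlapped, although Twist1 was above Snai1 in 10 of 10 libraries. Zeb2 exceeded Esrp1 in 8 of 10 libraries, Esrp1 exceeded Zeb1 in 6 and Zeb1 exceeded Snai2 in 9, so the order of these low genes was not the same in every tumor.

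The comparison asked whether EMT genes differed between therapy and control tumors. None of the 10 genes passed the test. edgeR's quasi-likelihood test on the estimated counts, adjusted by Benjamini-Hochberg over 18668 genes, called 0 of them at an adjusted p under 0.05, as it did 0% of all genes. The adjusted p was 0.985 to 0.998. None of the 10 had an unadjusted p under 0.05, against 2.92% of all genes (1.9% higher and 1.02% lower in therapy), and no gene of the 10 had groups that did not overlap, against 0.482% of all genes. limma also called 0 genes, and DESeq2 called 6 across the transcriptome, none of them among the 10. On the log2 scale the fold changes of the 10 genes had a median of 0.26, against 0.016 over all genes tested, and all 10 were above 0, as were 53.3% of all genes. The median of the 10 ran from 0.16 without therapy replicate 5 (8 of 10 above 0) to 0.37 without therapy replicate 4, and it was 0.12 over the 8 genes that limma tested on log2(FPKM + 1). Mean FPKM was higher in therapy for all 10 and for 49.7% of all genes. The sign of the edgeR log2 fold change turned with 1 library left out for Cdh1, Vim and Fn1. Without the 3 libraries richest in keratinocyte markers it turned for Fn1, Zeb2 and Snai1 (-0.027, -0.0020 and -0.036).

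**Figure D1:**
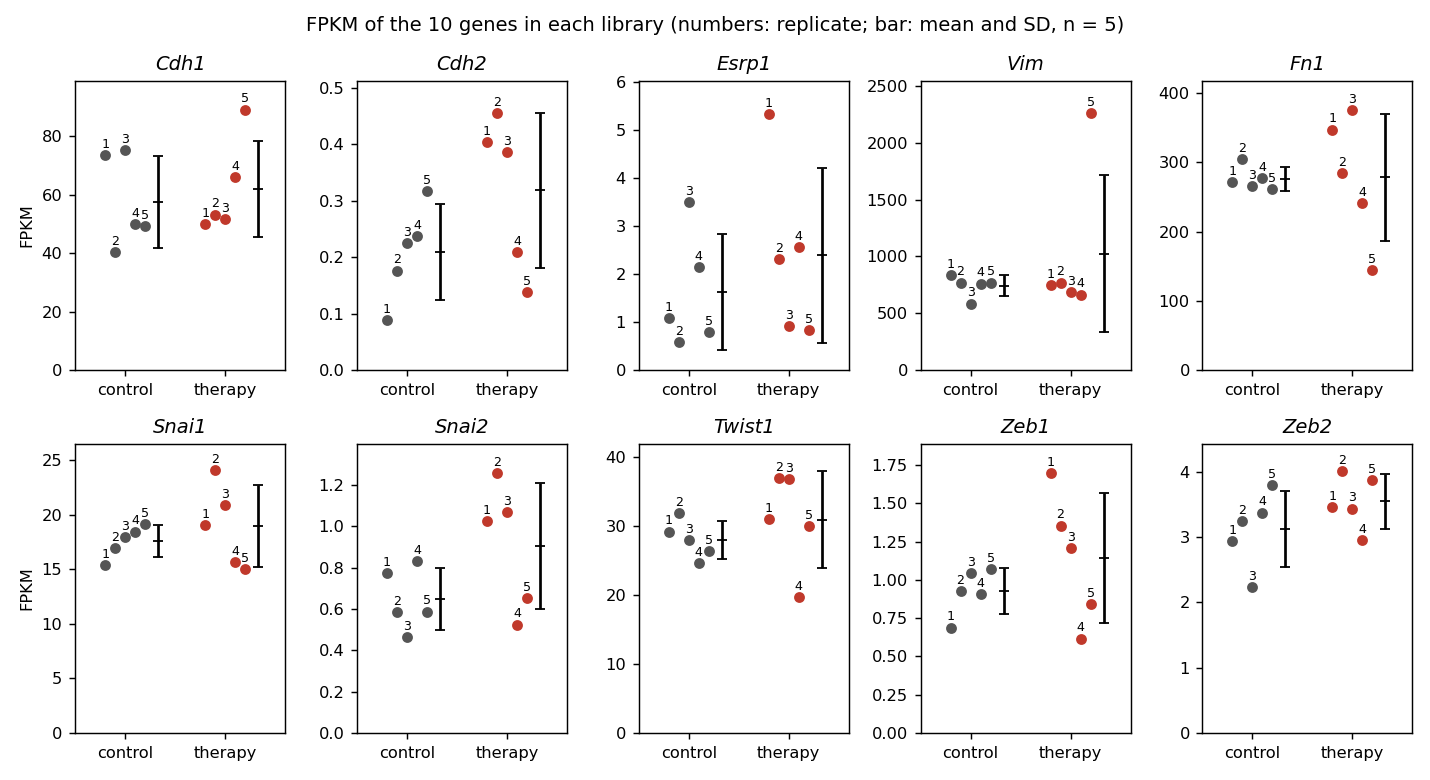
FPKM of each of the 10 genes (vertical axes, linear, each from 0) in the control and therapy libraries; points are libraries numbered by replicate, and the bar beside them gives the mean and SD (n = 5). The groups overlapped in every gene, and therapy replicate 5 stood at 2257 FPKM of Vim against 585 to 834 FPKM in the other libraries.

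Cdh1 (ENSMUSG00000000303, chromosome 8) encodes E-cadherin, the calcium-dependent adhesion molecule of epithelial junctions. It had 73.3, 40.2, 75.1, 49.9 and 49.2 FPKM in control replicates 1 to 5 and 49.8, 53.2, 51.7, 66.0 and 89.0 FPKM in therapy replicates 1 to 5. The highest value belonged to therapy replicate 5 and the lowest to control replicate 2, and the other 4 therapy libraries lay inside the control range. Group means were 57.6 ± 15.7 FPKM in control and 61.9 ± 16.4 FPKM in therapy (SD, n = 5 each). The edgeR log2 fold change was 0.13 ± 0.22 (SE, adjusted p = 0.989), and it turned to -0.077 without therapy replicate 5. With the 3 libraries richest in keratinocyte markers left out together, a setting chosen after the data were seen, it was 0.49. The adjusted p of Cdh1 was at least 0.906 under every setting tried.

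Cdh2 (ENSMUSG00000024304, chromosome 18) encodes N-cadherin, the cadherin of nerve, muscle and many mesenchymal cells, whose gain in place of E-cadherin is known as the cadherin switch. Its levels were 0.0892, 0.176, 0.226, 0.238 and 0.318 FPKM in the control libraries and 0.404, 0.455, 0.387, 0.209 and 0.138 FPKM in the therapy libraries, in replicate order. Therapy replicates 1, 2 and 3 were above every control, whereas therapy replicates 4 and 5 lay inside the control range. These levels rested on 44 to 277 estimated counts per library, the lowest counts of the 10 genes at their low end. The means were 0.209 ± 0.0842 FPKM in control and 0.319 ± 0.137 FPKM in therapy (SD, n = 5 each), and the log2 fold change was 0.62 ± 0.38 (SE, adjusted p = 0.985 from edgeR), the largest of the 10 genes. It was 0.43 to 0.80 with 1 library left out, and 0.23 without the 3 libraries richest in keratinocyte markers.

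The cadherin switch was also read within each library as the log2 ratio of Cdh1 to Cdh2 FPKM, with 0.1 added to each. This ratio was 7.55 ± 0.69 in control and 7.25 ± 0.87 in therapy (SD, n = 5 each), a difference of -0.30 (two-sided exact permutation p = 0.532, adjusted p = 0.619 over 4 ratios). The difference ran from -0.63 without therapy replicate 5 to -0.036 without control replicate 1. It also depended on the added value, which is about as large as Cdh2 itself, and was -0.45 with 0.01 and -0.011 with 1 added. In therapy replicates 1, 2 and 3 the ratio was 6.63, 6.58 and 6.73, below every control, while therapy replicates 4 and 5 had 7.74 and 8.55. E-cadherin RNA exceeded N-cadherin RNA in each of the 10 libraries. Relative to Epcam, which encodes an epithelial adhesion molecule, the log2 ratio of Cdh1 was -0.83 ± 0.44 in control and -0.62 ± 0.41 in therapy (SD, n = 5 each), with an exact permutation p of 0.429 and an adjusted p of 0.619. Control replicate 3 at -1.50 and therapy replicate 1 at -1.35 had the least Cdh1 per Epcam.

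Esrp1 (ENSMUSG00000040728, chromosome 4) encodes an epithelial splicing regulator that keeps the epithelial forms of transcripts such as Fgfr2 and Cd44. Control libraries had 1.09, 0.582, 3.50, 2.15 and 0.790 FPKM, and therapy libraries had 5.32, 2.31, 0.924, 2.56 and 0.838 FPKM. Its coefficient of variation was 75.3% over the 10 libraries, the largest of the 10 genes, and its highest value was 9.16 times its lowest. The means were 1.62 ± 1.21 FPKM in control and 2.39 ± 1.82 FPKM in therapy (SD, n = 5 each), with a log2 fold change of 0.58 ± 0.57 (SE, adjusted p = 0.985 from edgeR). That difference rested on single libraries, being 0.044 without therapy replicate 1 and 1.05 without control replicate 3. The log2 ratio of Esrp1 to Zeb1 was 0.48 ± 0.97 in control and 0.77 ± 0.98 in therapy (SD, n = 5 each), with an exact permutation p of 0.619 that adjustment over the 4 ratios left at 0.619.

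Vim (ENSMUSG00000026728, chromosome 2) encodes vimentin, the intermediate filament of mesenchymal cells and leukocytes. Control libraries had 834, 769, 585, 761 and 769 FPKM, and therapy libraries had 745, 769.6, 686, 665 and 2257 FPKM. Therapy replicate 5 alone was above the control range, and the other 4 therapy libraries lay within it. The mean was 744 ± 93.6 FPKM in control and 1024 ± 690.5 FPKM in therapy (SD, n = 5 each). The log2 fold change of 0.51 ± 0.35 (SE, adjusted p = 0.985 from edgeR) was carried by that library and became -0.071 without it. The log2 ratio of Cdh1 to Vim was -3.72 ± 0.50 in control and -3.89 ± 0.48 in therapy (SD, n = 5 each), with an exact permutation p of 0.611 and an adjusted p of 0.619, and in therapy replicate 5 it was -4.66, the lowest of the 10.

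Fn1 (ENSMUSG00000026193, chromosome 1) encodes fibronectin, an extracellular matrix protein bound by integrins. It was even among controls, at 272, 305, 266, 277 and 262 FPKM, and spread among therapy libraries, at 348, 284, 375, 242 and 144 FPKM. Therapy replicates 1 and 3 were above all controls, and therapy replicates 4 and 5 were below all of them. The coefficient of variation was 6.15% in control and 32.8% in therapy, while the means were 276 ± 17.0 and 279 ± 91.5 FPKM (SD, n = 5 each). The log2 fold change was 0.018 ± 0.20 (SE, adjusted p = 0.998 from edgeR), and its sign changed with the library left out, from -0.12 without therapy replicate 3 to 0.16 without therapy replicate 5. In therapy replicate 5 Fn1 was lowest where Vim and Cdh1 were highest. Summed fibroblast markers were lowest in the same library, at 200.3 FPKM, and the part of tissue makeup in these values was not tested.

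**Figure D2:**
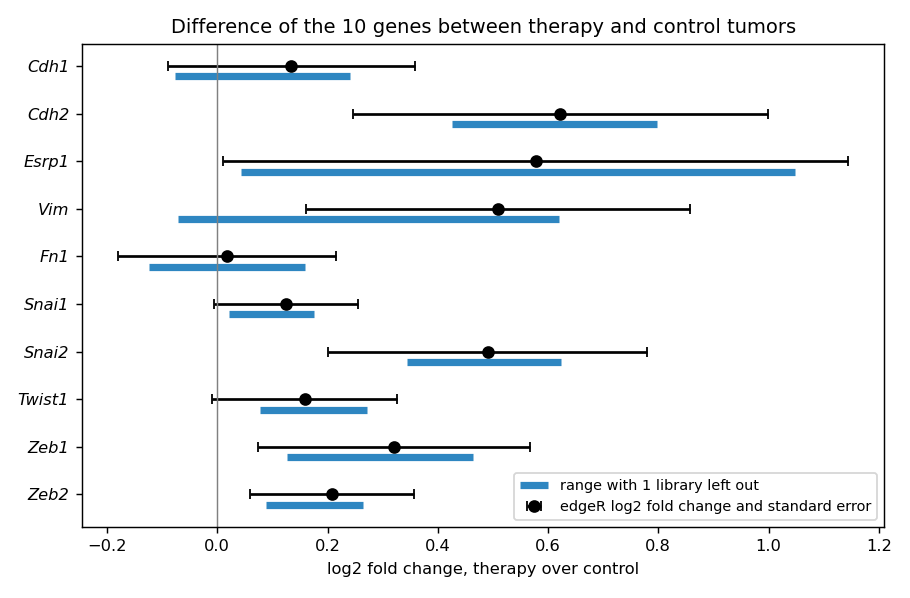
edgeR log2 fold change (horizontal axis, therapy over control) of each gene, with black bars for the standard error and blue bars for the range when 1 library was left out. The blue bars of Cdh1, Vim and Fn1 crossed 0, from -0.077 to 0.24, -0.071 to 0.62 and -0.12 to 0.16.

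Among the transcription factors, Twist1 and Snai1 were abundant and Zeb2, Zeb1 and Snai2 were low, and none passed the test. Twist1 (ENSMUSG00000035799, chromosome 12), a basic helix-loop-helix factor needed for metastasis of 4T1 in the mouse, had 29.1, 31.8, 27.9, 24.6 and 26.3 FPKM in control and 30.9, 36.9, 36.8, 19.7 and 29.9 FPKM in therapy. Therapy replicates 2 and 3 had the highest values of all libraries and therapy replicate 4 the lowest. Its log2 fold change was 0.16 ± 0.17 (SE, adjusted p = 0.985 from edgeR), or 0.077 without therapy replicate 3 and 0.27 without therapy replicate 4. Snai1 (ENSMUSG00000042821, chromosome 2), a zinc finger repressor of Cdh1, had 15.4, 16.9, 18.0, 18.5 and 19.1 FPKM in control and 19.1, 24.1, 20.9, 15.6 and 15.0 FPKM in therapy. Over the 10 libraries together it varied least of the 10 genes, with a coefficient of variation of 15.2%, close to 15.9% for Zeb2. Within control Fn1 varied less (6.15% against 8.32% for Snai1), and within therapy Zeb2 did (11.7% against 19.9%). The log2 fold change of Snai1 was 0.12 ± 0.13, from 0.021 without therapy replicate 2 to 0.18 without therapy replicate 4.

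Snai2 (ENSMUSG00000022676, chromosome 16), the related repressor SLUG, had 0.774, 0.584, 0.464, 0.831 and 0.587 FPKM in control and 1.03, 1.26, 1.07, 0.523 and 0.652 FPKM in therapy. Zeb1 (ENSMUSG00000024238, chromosome 18), a repressor with zinc finger clusters and a homeodomain, had 0.687, 0.927, 1.04, 0.906 and 1.07 FPKM in control and 1.70, 1.35, 1.21, 0.617 and 0.842 FPKM in therapy. As with Cdh2, therapy replicates 1, 2 and 3 were above every control in both genes, while therapy replicates 4 and 5 were not. Their log2 fold changes were 0.49 ± 0.29 and 0.32 ± 0.25 (SE, adjusted p = 0.985 for each from edgeR). With 1 library left out that of Snai2 ran from 0.34 without therapy replicate 2 to 0.62 without therapy replicate 4, and that of Zeb1 from 0.13 without therapy replicate 1 to 0.46 without therapy replicate 4. Zeb2 (ENSMUSG00000026872, chromosome 2), the paralog of Zeb1 that macrophages also express, had 2.94, 3.25, 2.23, 3.38 and 3.80 FPKM in control and 3.46, 4.01, 3.44, 2.95 and 3.87 FPKM in therapy. Its log2 fold change was 0.21 ± 0.15, from 0.088 without control replicate 3 to 0.26 without control replicate 5, and therapy replicates 2 and 5 were above all controls.

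Leaving out therapy replicate 4 moved the count of the 10 genes at an unadjusted p under 0.05 from 0 to 3, namely Zeb1, Snai2 and Twist1, with log2 fold changes of 0.46, 0.62 and 0.27 and an adjusted p of 0.545 for each. Across all genes the share at an unadjusted p under 0.05 rose in that setting too, to 8.99%. Without therapy replicate 5 the count was 1, Cdh2, with a log2 fold change of 0.79 and an adjusted p of 0.981, against 3.02% of all genes.

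Cdh2 varied together with Snai1 and with Zeb1 between libraries, in both groups. Of 45 pairs, Pearson's r of log2(FPKM + 1) passed for 2 after Benjamini-Hochberg adjustment over the pairs. Cdh2 and Snai1 had r = 0.91 (permutation p = 0.00027, adjusted p = 0.0121) and Spearman's rho = 0.94 (permutation p = 0.00027, adjusted p = 0.0121) over 10 libraries. Within groups r was 0.99 in control and 0.94 in therapy, and without the 2 libraries farthest from the median of Cdh2 it was 0.92. Cdh2 and Zeb1 had r = 0.84 (permutation p = 0.00208, adjusted p = 0.0468) and rho = 0.87 (permutation p = 0.00256, adjusted p = 0.0547), with r = 0.90 in control, 0.83 in therapy and 0.76 without the 2 farthest libraries. On the scale of log2 CPM (counts scaled by TMM-adjusted library size) Pearson's r passed for 0 of 45 pairs, with an adjusted p of 0.141 for each of these 2 (r = 0.82 and 0.77). log2(FPKM + 1) compresses the low values of Cdh2, and libraries share depth and tissue makeup.

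No pair of an epithelial and a mesenchymal gene passed after adjustment. Cdh1 and Fn1 had r = -0.72 (permutation p = 0.0153, adjusted p = 0.173) and rho = -0.55 (permutation p = 0.104, adjusted p = 0.310). Without the 2 libraries farthest in Cdh1 r weakened to -0.43, so the relation over all libraries rested in part on those. Within groups it was -0.64 in control and -0.97 in therapy. Cdh1 and Cdh2 had r = -0.52 (permutation p = 0.128, adjusted p = 0.320) and rho = -0.41 (permutation p = 0.246, adjusted p = 0.443), with r = -0.38 in control, -0.94 in therapy and -0.38 without the 2 farthest libraries. Cdh1 and Esrp1 had r = 0.070 (permutation p = 0.840, adjusted p = 0.859) and rho = 0.31 (permutation p = 0.389, adjusted p = 0.604), with r = 0.62 in control and -0.53 in therapy. Esrp1 and Zeb1 had r = 0.44 (permutation p = 0.204, adjusted p = 0.401) and rho = 0.20 (permutation p = 0.583, adjusted p = 0.750), and r was -0.093 without the 2 farthest libraries. Fn1 and Vim had r = -0.81 (permutation p = 0.0569, adjusted p = 0.256) and rho = -0.22 (permutation p = 0.537, adjusted p = 0.711), and r was 0.31 without the 2 libraries farthest in Fn1.

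**Figure D3:**
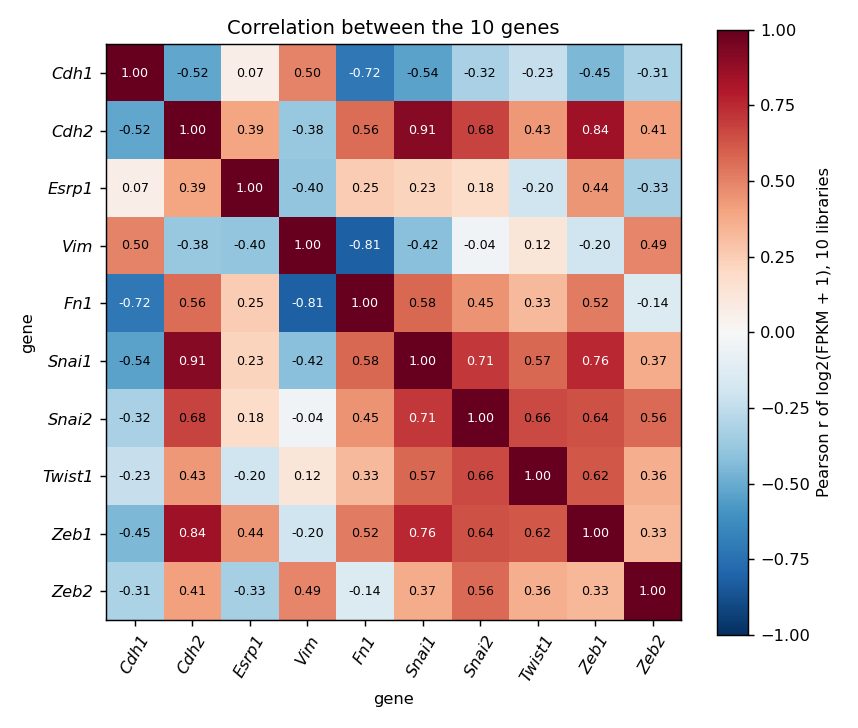
Pearson's r of log2(FPKM + 1) over the 10 libraries for each pair of the 10 genes, both axes listing the genes, with color and printed values giving r from -1 to 1. Cdh2, Snai1 and Zeb1 formed the closest group (r = 0.76 to 0.91), while Vim and Fn1 had r = -0.81, which was 0.31 without the 2 libraries farthest in Fn1.

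Markers of stromal cells moved with Cdh1, Zeb1 and Snai1. This comparison was chosen after the values were seen. It covers 120 relations between the 10 genes and the mean log2(FPKM + 1) of 12 marker lists. After adjustment 4 of them passed by Pearson's r and 2 by Spearman's rho. The relations were computed on this scale only and not on log2 CPM. Cdh1 was lower where fibroblast markers were higher (r = -0.87, permutation p = 0.00161, adjusted p = 0.0483, rho = -0.73, permutation p = 0.0196, adjusted p = 0.227). For this relation r was -0.84 in control, -0.97 in therapy and -0.71 without the 2 libraries farthest from the median of the fibroblast markers. Zeb1 rose with endothelial markers (r = 0.91, permutation p = 0.00043, adjusted p = 0.0483, rho = 0.90, permutation p = 0.00078, adjusted p = 0.0468). It also rose with pericyte and smooth muscle markers (r = 0.87, permutation p = 0.00122, adjusted p = 0.0483, rho = 0.98, permutation p = 0.00003, adjusted p = 0.0036). Snai1 rose with pericyte and smooth muscle markers (r = 0.88, permutation p = 0.00091, adjusted p = 0.0483, rho = 0.87, permutation p = 0.00216, adjusted p = 0.0654). Without the 2 libraries farthest from the median of the marker list in question the last 3 values of r were 0.88, 0.84 and 0.76. In the same order they were lower in control (0.76, 0.68 and 0.57) than in therapy (0.96, 0.89 and 0.93).

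All 10 fibroblast markers were detected in every library, and their summed level was 281 to 810 FPKM in control and 200.3 to 1187 FPKM in therapy. It was 1187, 766 and 799 FPKM in therapy replicates 1, 2 and 3, and 439.8 and 200.3 FPKM in therapy replicates 4 and 5. Among therapy libraries, these are the same ones in which Cdh2, Zeb1 and Snai2 were respectively above all controls and not above them. Control replicate 5 had 810 FPKM of fibroblast markers, above therapy replicates 2 and 3. Its Cdh2, Zeb1 and Snai2 were 0.318, 1.07 and 0.587 FPKM, below both. With mean log2(FPKM + 1) of fibroblast markers these 3 genes had r = 0.82, 0.77 and 0.51, and none passed (adjusted permutation p = 0.0950, 0.122 and 0.381). In control alone r was 0.79, 0.66 and -0.035. The 8 endothelial markers summed to 40.7 to 51.4 FPKM in control and 29.5 to 61.7 FPKM in therapy, and the 8 pericyte and smooth muscle markers to 43.7 to 66.4 FPKM in control and 37.8 to 72.5 FPKM in therapy. Macrophage markers summed to 426 to 1363 FPKM in control and 559 to 754 FPKM in therapy. All 6 lymphocyte markers had a log2 fold change above 0 (median 0.998), against 53.3% of all genes. In edgeR's test 5 of them had an unadjusted p under 0.05, against 2.92% of all genes, and none passed (smallest adjusted p = 0.985). The lymphocyte markers summed to 7.82 to 13.0 FPKM in control and 11.5 to 29.9 FPKM in therapy. Skeletal muscle markers, as mean log2(FPKM + 1), had r = 0.69 with Snai1 and with Twist1 and 0.63 with Cdh2, and none of these passed (adjusted permutation p = 0.186, 0.186 and 0.298). Without the 2 libraries farthest in skeletal muscle markers the values of r were 0.31, 0.34 and 0.27. Over all 10 libraries the rho values were 0.59, 0.62 and 0.50 (adjusted permutation p = 0.343, 0.308 and 0.426). Whether RNA of Cdh2, Zeb1 and Snai2 came from tumor cells or stroma was not tested.

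**Figure D4:**
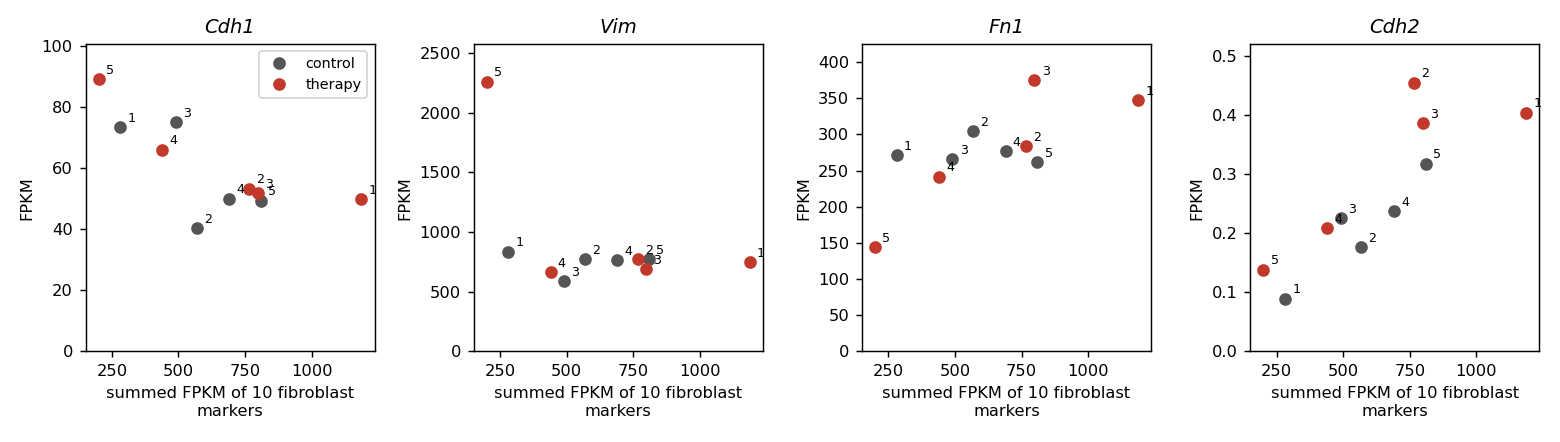
FPKM of Cdh1, Vim, Fn1 and Cdh2 (vertical axes, from 0) against the summed FPKM of 10 fibroblast markers (horizontal axis) in each library, numbered by replicate; gray points are control and red points therapy. Therapy replicate 5 had the least fibroblast marker RNA (200.3 FPKM), the most Cdh1 (89.0 FPKM) and Vim (2257 FPKM) and the least Fn1 (144 FPKM).

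The wider EMT program was followed in 7 lists of related genes, 127 genes in the table and 125 tested. None passed edgeR's test, and 6 had an unadjusted p under 0.05, against 2.92% of all genes. A log2 fold change above 0 was found for 98 of the 125, against 53.3% of all genes, and the median was 0.18 against 0.016. These 53.3% are also the background of the counts of higher genes in each list below, where all 10 libraries were fitted. They are not the background of counts from fits with libraries left out. In those fits the median log2 fold change over all genes was -0.0054 to 0.013, and the share above 0 is not given here. Of 21 epithelial junction genes tested 13 were higher and 8 lower on the mean, with a median of 0.062. With 1 library left out this median ran from -0.035 (9 of 21 higher, without therapy replicate 2) to 0.22 (17 of 21, without control replicate 3), and it was -0.015 without control replicate 4. Ctnnb1, which encodes beta-catenin, the link from cadherins to the cytoskeleton, was the most abundant at 154 ± 14.4 FPKM in control and 174 ± 27.8 FPKM in therapy. Cdh3, or P-cadherin, had the largest positive log2 fold change in that list at 1.21, resting on therapy replicate 2 with 1.41 FPKM against 0.0922 to 0.255 FPKM elsewhere, and the desmosomal cadherin gene Dsg2 the most negative at -0.18.

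Keratins and epithelial surface genes (7 higher and 8 lower of 15) had a median log2 fold change of -0.036, which ran from -0.14 without therapy replicate 2 to 0.14 without control replicate 3 and was 0.0545 without control replicate 1. Krt8, the simple epithelial keratin, had 1012 ± 174 FPKM in control and 943 ± 338 FPKM in therapy (SD, n = 5 each). Ap1m2, an adaptor subunit of epithelial sorting, had a log2 fold change of 2.28 at means of 0.0281 FPKM in control and 0.148 FPKM in therapy, with 0.469 FPKM in therapy replicate 2, and Rab25, an epithelial recycling GTPase, -0.62. Among epithelial regulators (8 higher and 3 lower of 11, median 0.28, from 0.023 without therapy replicate 2 to 0.46 without control replicate 3), Klf5 was the most abundant, with a log2 fold change of 0.18, Trp63, the basal epithelial factor p63, had 2.13 and Ehf -0.29. Trp63 was at 2.18 FPKM in therapy replicate 2, the library richest in keratinocyte markers, and the part of skin in that value was not tested. Without the 3 libraries richest in keratinocyte markers the medians of the epithelial lists were higher, at 0.26 for junctions (19 of 21 higher), 0.21 for keratins and surface genes (12 of 15) and 0.31 for regulators (10 of 11). These 3 libraries are therapy replicate 2 and control replicates 1 and 3. Control replicate 3 also had the highest sum of junction genes, at 941 FPKM. Krt5 and Krt14 are both keratinocyte markers and members of the keratin list.

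Of 16 other EMT regulators tested 14 were higher and 2 lower on the mean, with a median log2 fold change of 0.15 that ran from 0.094 without therapy replicate 3 to 0.28 without therapy replicate 4. Wwtr1, encoding the Hippo effector TAZ, was both the most abundant and the most negative at -0.043, and the homeobox gene Prrx2 had the largest value at 0.45. Hmga2, singled out after its values were seen, encodes an architectural chromatin protein of embryonic tissue and many carcinomas. It had 44.3, 47.6, 42.6, 51.0 and 50.0 FPKM in control and 52.7, 65.7, 60.3, 54.1 and 53.9 FPKM in therapy. All 5 therapy libraries lay above all controls, as they did in 0.182% of all genes tested. The means were 47.1 ± 3.61 FPKM in control and 57.3 ± 5.53 FPKM in therapy (SD, n = 5 each), and the log2 fold change of 0.30 ± 0.097 (SE) did not pass (adjusted p = 0.985 from edgeR).

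Mesenchymal matrix genes numbered 23, of which 22 had a positive and 1 a negative value, with a median log2 fold change of 0.27. That direction rested on therapy replicate 1, since without it 11 of 23 were higher and the median was -0.025. That library also had the most fibroblast marker RNA. Col1a1, Col1a2, Col3a1, Lum and Dcn belong to both lists, so the 2 are not independent. Without therapy replicate 5 all 23 were higher (median 0.42), and without the 3 libraries richest in keratinocyte markers 12 of 23 were (median 0.0017). Mmp9, a gelatinase, had 0.67, and Spp1, encoding osteopontin, was the most abundant and the lower one at -0.088. Of 16 genes of the mesenchymal cytoskeleton and adhesion 14 were higher (median 0.23, from 0.14 without control replicate 4 to 0.44 without control replicate 2, and 0.11 with a replicate block), with Itga5, the fibronectin receptor subunit, at 0.66 (adjusted p = 0.985 from edgeR) and S100a4, a calcium-binding protein of motile cells, at -0.20. Without therapy replicate 3 the count was 10 of 16. In the TGF-beta pathway, the best known inducer of EMT, 20 of 23 genes were higher (median 0.17, from 0.10 without therapy replicate 1 to 0.24 without therapy replicate 4). Bmp7, a ligand of the BMP branch, had 0.463 ± 0.186 FPKM in control and 1.84 ± 2.06 FPKM in therapy (SD, n = 5 each), with a log2 fold change of 2.03 (adjusted p = 0.985 from edgeR) and 5.36 FPKM in therapy replicate 2. Id1, a BMP target, was the most abundant and had -0.17.

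**Figure D5:**
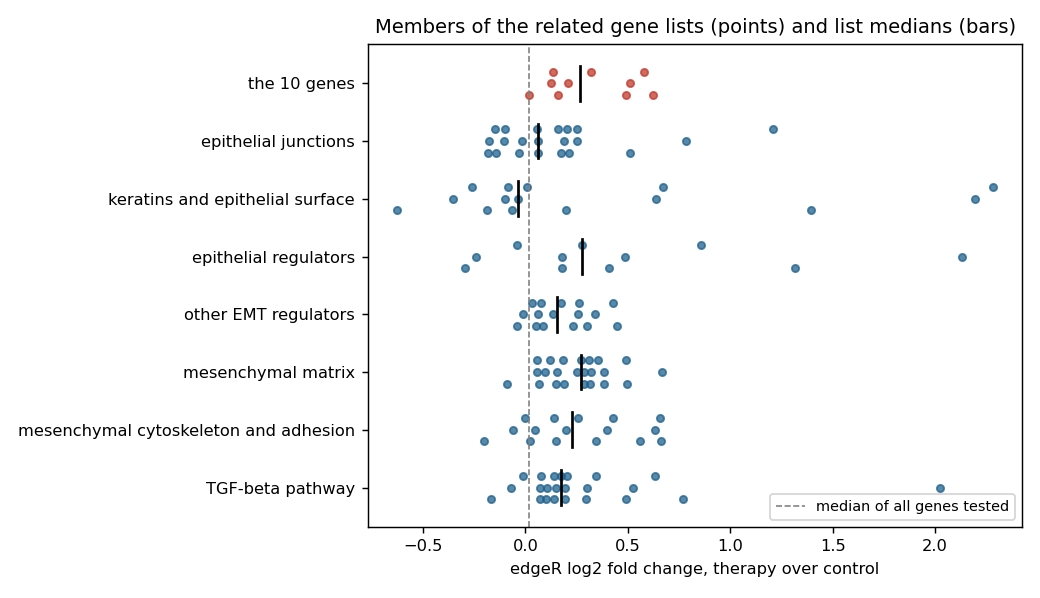
edgeR log2 fold change (horizontal axis, therapy over control) of each tested gene in the 7 related lists and of the 10 genes; points are genes, black bars are list medians and the dashed line is the median of all genes tested (0.016). The medians were 0.27 for mesenchymal matrix, 0.26 for the 10 genes and -0.036 for keratins and epithelial surface genes, and no gene passed the test.

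For each of the 10 genes the gene most like it was sought by Pearson's r of log2(FPKM + 1) over the 10 libraries among 12794 genes with a mean of at least 1 FPKM. These are the highest of many values and carry no test. Cdh1 was most like Atf6 (r = 0.93, rho = 0.88), Cdh2 like Slit3 (r = 0.96, rho = 0.95), Vim like Spin4 (r = 0.97, rho = 0.62) and Fn1 like Bace1 (r = 0.94, rho = 0.64). Zeb1 was most like Numbl (r = 0.96, rho = 0.96), Zeb2 like Msrb3 (r = 0.91, rho = 0.94), Snai1 like Hspb1 (r = 0.95, rho = 0.88), Snai2 like Hcfc2 (r = 0.91, rho = 0.92), Twist1 like Ltbp2 (r = 0.94, rho = 0.93) and Esrp1 like Papln (r = 0.93, rho = 0.92).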

How the data were processed

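Reads were checked with FastQC by the authors, aligned with HISAT2 and assembled and quantified with StringTie, after merging with gffcompare. The submitters' processing notes name cutadapt 1.9 and GRCm38, while the methods name Ensembl v107. Genes are therefore placed by chromosome only, and the versions of HISAT2 and StringTie are unstated in these sources. The authors deposited FPKM values and whole-number estimated counts per gene, and how the estimated counts were derived is not given in the sources used here. Counts pile up at 4 (a median of 1193 genes per library, against 593 at 3), so 1 count need not be 1 read, and FPKM values are relative to each library's total.

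Estimated counts were tested with edgeR 4.0.16 (TMM, filterByExpr with a minimum count of 10, quasi-likelihood) in R 4.3.3, with SE taken as the log2 fold change over the square root of F. limma 3.58.1 on log2(FPKM + 1) and DESeq2 1.42.0 on counts were alternatives, with others covering scaling, filters, counts divided by 4, a replicate block and each library left out. Low FPKM genes are understated by log2(FPKM + 1), which is why the count test was the main one. Ratios used FPKM + 0.1 and an exact two-sided test over all 252 regroupings of 5 and 5 libraries, which cannot give a p under 0.00794. Correlations used 100000 permutations. The edgeR fit was tested on simulated data.

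The 10 genes and all lists were chosen with earlier results of these data known. Genes named were the 10, in each related list the most abundant and those with the largest positive and the most negative log2 fold change, and for each of the 10 the gene most like it. Hmga2 falls outside this rule, as does Epcam, the reference for Cdh1. Of 128 related genes listed 127 were matched by symbol.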

Additional observations from a re-analysis of the deposited data

Results flagged for a closer look

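Of 28 groups of 5 libraries examined (10 genes and 4 ratios in each group), 2 held a library far from the others by Dixon's criterion, for which chance gives about 1 in 20 groups. Vim stood at 2257 FPKM in therapy replicate 5, against 665 to 769.6 FPKM in the other therapy libraries. The log2 ratio of Cdh1 to Epcam was -1.35 in therapy replicate 1, against -0.48 to -0.38 in the other therapy libraries.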

How the results depend on the processing

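The 10 genes had an adjusted p of at least 0.545 in each of the 18 alternative fits. Across all genes the count of calls was 0 in each of them except DESeq2, which gave 6. The count of the 10 genes at an unadjusted p under 0.05 was 0 to 3 with 1 library left out and 0 under the other alternatives, and the count of member pairs whose Pearson's r passed went from 2 to 0 on the scale of TMM-scaled CPM. The sign of small log2 fold changes moved. Fn1 turned to -0.060 with limma on log2(FPKM + 1), -0.061 with limma on log2(FPKM + 0.1), -0.042 with a replicate block and -0.027 without the 3 libraries richest in keratinocyte markers, where Zeb2 also turned to -0.0020 and Snai1 to -0.036. With 1 library left out Fn1 ranged from -0.12 to 0.16, Cdh1 from -0.077 to 0.24 and Vim from -0.071 to 0.62, and the difference in Cdh1 to Vim from -0.31 to 0.019. The cause of these changes of sign was not tested, beyond the library each setting leaves out. With log2(FPKM + 1) and a minimum mean of 1 FPKM, Cdh2 and Snai2 were not tested.

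Labels number the libraries 1 to 5 in each group. Deviations of same-numbered libraries from their group means correlated at -0.28 to 0.53, with 1 of 5 pairs over 0.1. These correlations cannot show whether same-numbered libraries were paired in handling. With the replicate block the count of calls stayed at 0 and the 10 genes had none at an unadjusted p under 0.05. For the ratios 5 pairs cannot give a sign-flip p under 0.0625. Cdh2 and Snai2 rested on few estimated counts (44 to 277 and 66 to 177 per library), and the SE was largest for Esrp1 (0.57).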
